A study of Homo sapiens with 4 samples.

Results

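Ribosome biogenesis factors are the proteins that build ribosomes without being part of the finished particle. The 54 genes described here are a list of such factors given by gene symbol. Of these, 49 had at least 1 probe set (a group of short probes that reads a transcript) whose annotation named that gene alone, out of 19775 genes read in the same way. The other 5 were not measured under this rule: the annotation pairs the probe sets of BOP1, NOP56 and DKC1 with microRNA or small nucleolar RNA genes as well, and names none for EBNA1BP2 and GNL3. By role, 25 of the 54 act on the small subunit, 17 on the large subunit and 8 in small nucleolar ribonucleoproteins (snoRNPs), and 4 are nucleolar proteins with several roles.

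The cells were LSTGFBR2, a colon cancer epithelial line that carries a TGFBR2 construct (the type II TGF-β receptor) switched on by doxycycline through the T-Rex system. The series has 4 arrays (HG-U133 Plus 2.0). Untreated cells gave 2 of them, and cells exposed for 16 hours to 5 ng/ml of TGF-β1, a cytokine known to slow the growth of epithelia, gave the other 2. The treatment protocol gives doxycycline at 1 µg/ml from seeding, 16 hours before TGF-β1, while the design text speaks of cells with and without it, and no label ties doxycycline to particular arrays. The TGFBR2 probe set used for the gene read 9.44 and 9.55 without TGF-β1 and 14.70 and 14.92 with it. Its second probe set read 10.47 and 10.81 against 10.58 and 10.76. Effects of TGF-β1, of receptor induction and, if the groups differed in it, of doxycycline itself therefore cannot be told apart here.

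All values are log2 units from RMA, which sets the arrays to a common distribution, so each change is relative to the other transcripts. Array medians over all probe sets lay between 6.57 and 6.61 and single values between 2.48 and 15.34. All 9 colon epithelial markers had a mean level above 7, up to 15.05 for the keratin gene KRT18, and 1 of them, the intestinal transcription factor gene CDX2, fell. The cadherin gene CDH1 was higher at an unadjusted limma p of 0.00768 (log2 fold change 0.56) without passing after adjustment. Of 14 measured fibroblast, endothelial and leukocyte markers, 6 had a mean level of 7 or more and 0 passed the limma test; 2, the fibroblast genes COL3A1 and LUM, were lower at an unadjusted p under 0.05. The mean over the 6 fibroblast markers was 6.92 and 6.78 without TGF-β1 and 6.59 and 6.35 with it, over the 4 endothelial ones between 6.13 and 6.22 on all arrays, and over the 4 leukocyte ones between 6.46 and 6.62. Their part in the results was not tested. Mean levels of single genes ran from 3.41 to 9.33 among the fibroblast markers. They ran from 4.75 (CDH5) to 7.45 among the endothelial markers and from 4.60 (PTPRC) to 8.50 among the leukocyte markers. Nothing in the labels says that the arrays came from separate cultures, so p-values rest on array-to-array spread alone, and this spread may be technical.

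As background, ribosome assembly begins in the nucleolus, where RNA polymerase I makes a long precursor RNA. The small-subunit processome, a large complex seeded by U3 snoRNA, folds and cuts the part that becomes the small subunit, and a separate series of factors matures the large subunit. The snoRNPs guide chemical modification of the RNA, with box C/D particles carrying out methylation and box H/ACA particles pseudouridylation. Growing cells, colon cancer cells among them, spend much of their resources on this pathway, and the transcription factor MYC is known to drive many of its genes through the E-box, the DNA letters CACGTG, which other basic helix-loop-helix factors also bind.

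Promoter sequences are shown as a feature outside the array values. The genes were chosen with earlier results of these data known, so the shares below are a description. The RefSeq promoter table (GRCh38.p14) covers 250 bases before to 50 bases after each annotated start, on the gene's own strand, and holds 55 windows for 48 of the 54 factors. The E-box, which reads the same on both strands, was present in 25 of these 55 windows (45.5%), against 7.25% of all 35093 windows in the table and 8.36% of the 21471 windows of genes read on the arrays. By gene, 24 of the 48 factors held it. Of the 28 matches, 23 began within 50 bases of the annotated start (82.1%), against 37.0% of the 2816 matches over all windows. A match describes the letters in the window and is not a bound site.

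The windows below run from 70 bases before to 50 bases after the start, so the transcript begins at base 71, and capitals mark the E-box. The first 8 belong to the factors with the largest falls among those with an E-box. They are LYAR (chr4:4289972-4290091, minus strand), MRTO4 (chr1:19251735-19251854, plus strand), RRP9 (chr3:51941855-51941974, minus strand), NLE1 (chr17:35142254-35142373, minus strand), WDR43 (chr2:28894597-28894716, plus strand), DDX21 (chr10:68956577-68956696, plus strand), NOP14 (chr4:2963357-2963476, minus strand) and UTP20 (chr12:101280035-101280154, plus strand).
LYAR: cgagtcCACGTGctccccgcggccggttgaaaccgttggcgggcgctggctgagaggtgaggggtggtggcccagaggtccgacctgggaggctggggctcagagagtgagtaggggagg
MRTO4: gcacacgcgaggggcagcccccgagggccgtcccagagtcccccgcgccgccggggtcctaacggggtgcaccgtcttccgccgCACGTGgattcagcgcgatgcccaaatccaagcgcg
RRP9: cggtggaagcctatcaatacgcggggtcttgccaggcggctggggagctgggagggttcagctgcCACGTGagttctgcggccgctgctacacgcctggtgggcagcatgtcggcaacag
NLE1: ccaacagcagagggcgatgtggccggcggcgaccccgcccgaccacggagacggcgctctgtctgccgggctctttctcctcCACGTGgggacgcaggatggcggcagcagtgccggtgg
WDR43: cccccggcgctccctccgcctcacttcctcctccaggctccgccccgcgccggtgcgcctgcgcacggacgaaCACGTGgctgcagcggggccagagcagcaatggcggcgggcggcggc
DDX21: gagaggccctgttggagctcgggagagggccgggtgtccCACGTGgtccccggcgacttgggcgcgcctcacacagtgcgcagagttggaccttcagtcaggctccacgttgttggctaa
NOP14: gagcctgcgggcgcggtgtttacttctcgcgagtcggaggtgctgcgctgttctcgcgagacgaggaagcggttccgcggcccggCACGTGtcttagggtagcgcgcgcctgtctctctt
UTP20: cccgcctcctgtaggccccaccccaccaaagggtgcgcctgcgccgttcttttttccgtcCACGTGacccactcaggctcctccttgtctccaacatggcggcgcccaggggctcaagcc
In 7 of these 8 windows the E-box began between 31 bases before and 16 bases after the start. In LYAR it began 64 bases before it. LYAR and DDX21 each have a further annotated start, whose window of the same size held no E-box.

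Windows of 2 snoRNP core genes that held an E-box without passing the test, FBL (chr19:39846330-39846449, minus strand) and NOP10 (chr15:34343087-34343206, minus strand), are set beside those of 3 factors that fell with no E-box in the window, WDR3 (chr1:117929669-117929788, plus strand), NOP16 (chr5:176388549-176388668, minus strand) and BRIX1 (chr5:34915641-34915760, plus strand). These 5 were chosen after their values were seen.
FBL: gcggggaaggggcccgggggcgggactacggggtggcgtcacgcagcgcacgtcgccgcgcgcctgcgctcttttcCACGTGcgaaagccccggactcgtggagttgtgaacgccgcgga
NOP10: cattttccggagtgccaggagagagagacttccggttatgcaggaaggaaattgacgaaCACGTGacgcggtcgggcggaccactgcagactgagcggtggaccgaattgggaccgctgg
WDR3: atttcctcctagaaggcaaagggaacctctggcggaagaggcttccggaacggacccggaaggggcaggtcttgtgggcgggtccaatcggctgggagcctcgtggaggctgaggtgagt
NOP16: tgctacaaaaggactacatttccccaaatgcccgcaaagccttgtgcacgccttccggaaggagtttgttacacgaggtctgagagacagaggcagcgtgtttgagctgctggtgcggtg
BRIX1: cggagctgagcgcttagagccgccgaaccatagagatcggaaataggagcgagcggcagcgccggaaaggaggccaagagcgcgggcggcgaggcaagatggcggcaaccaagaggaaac
In these 5 genes the motif and the call did not coincide. FBL and NOP10 also read lower on both TGF-β1 arrays than on both untreated arrays, without passing the test.

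**Figure D1:**
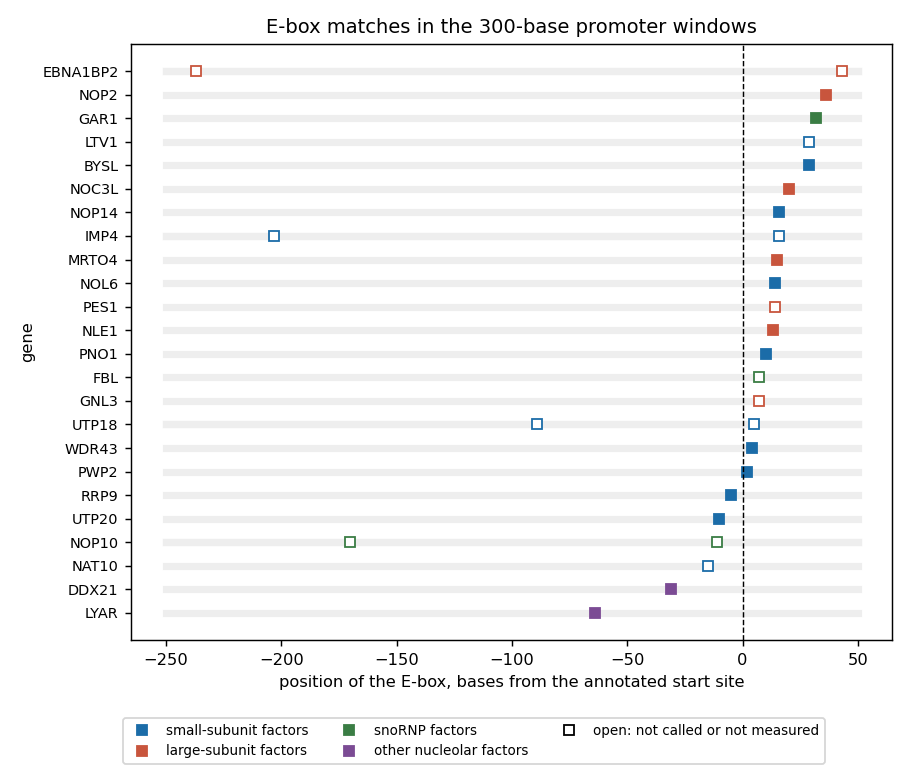
Each square is an E-box match in a promoter window of a ribosome biogenesis factor, placed by its distance in bases from the annotated start (dashed line), with the grey bar as the window of 250 bases before to 50 after the start. Colours give the class, filled squares are genes called lower after TGF-β1, open squares genes not called or not measured. Of 28 matches, 23 lie within 50 bases of the start.

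Ribosome biogenesis factors were lower as a group in the TGF-β1 arrays. Of the 49 measured, 23 fell and 0 rose at a limma adjusted p under 0.05 over all genes, while 1.47% of all genes tested were called lower and 1.87% higher (3.34% in either direction). With an unadjusted limma p under 0.05 as the threshold, 43 of the 49 were lower, against 8.54% of all genes. All 49 had a log2 fold change below 0, against 50.9% of all genes, and in 48 both TGF-β1 arrays read below both untreated arrays, against 23.0% of all genes. Among the 7251 genes within the level range of the factors, 2.91% were called lower and 31.0% had both TGF-β1 arrays below. The median log2 fold change was -0.58 (1.49-fold lower), against a median of -0.0036 over all genes tested, and 1 factor, LYAR, was lower by 2-fold or more. The median level over the factors was 11.25 and 11.10 on the untreated and 10.48 and 10.40 on the TGF-β1 arrays.

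The changes were thus mostly below 2-fold, shared by almost all members and similar in every pairing of arrays. Of all genes tested, 2.21% had a log2 fold change below the median of the factors. Of the 49 factors 24 were lower by 1.5-fold or more, and of all 19775 genes 425. The median change lay between -0.66 and -0.51 in the 4 pairings of a TGF-β1 with an untreated array. With 1 array left out, 1 residual degree of freedom remains and the count fell from 23 to 0 without untreated replicate 1, untreated replicate 2 or TGF-β1 replicate 2, and to 1 (LYAR, limma adjusted p = 0.0304) without TGF-β1 replicate 1. In each of these 4 fits all 49 factors still had a log2 fold change below 0. For the 48 factors whose groups did not overlap, no other outcome was possible. Over all genes the calls dropped from 660 to between 70 and 104 in the same fits.

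**Figure D2:**
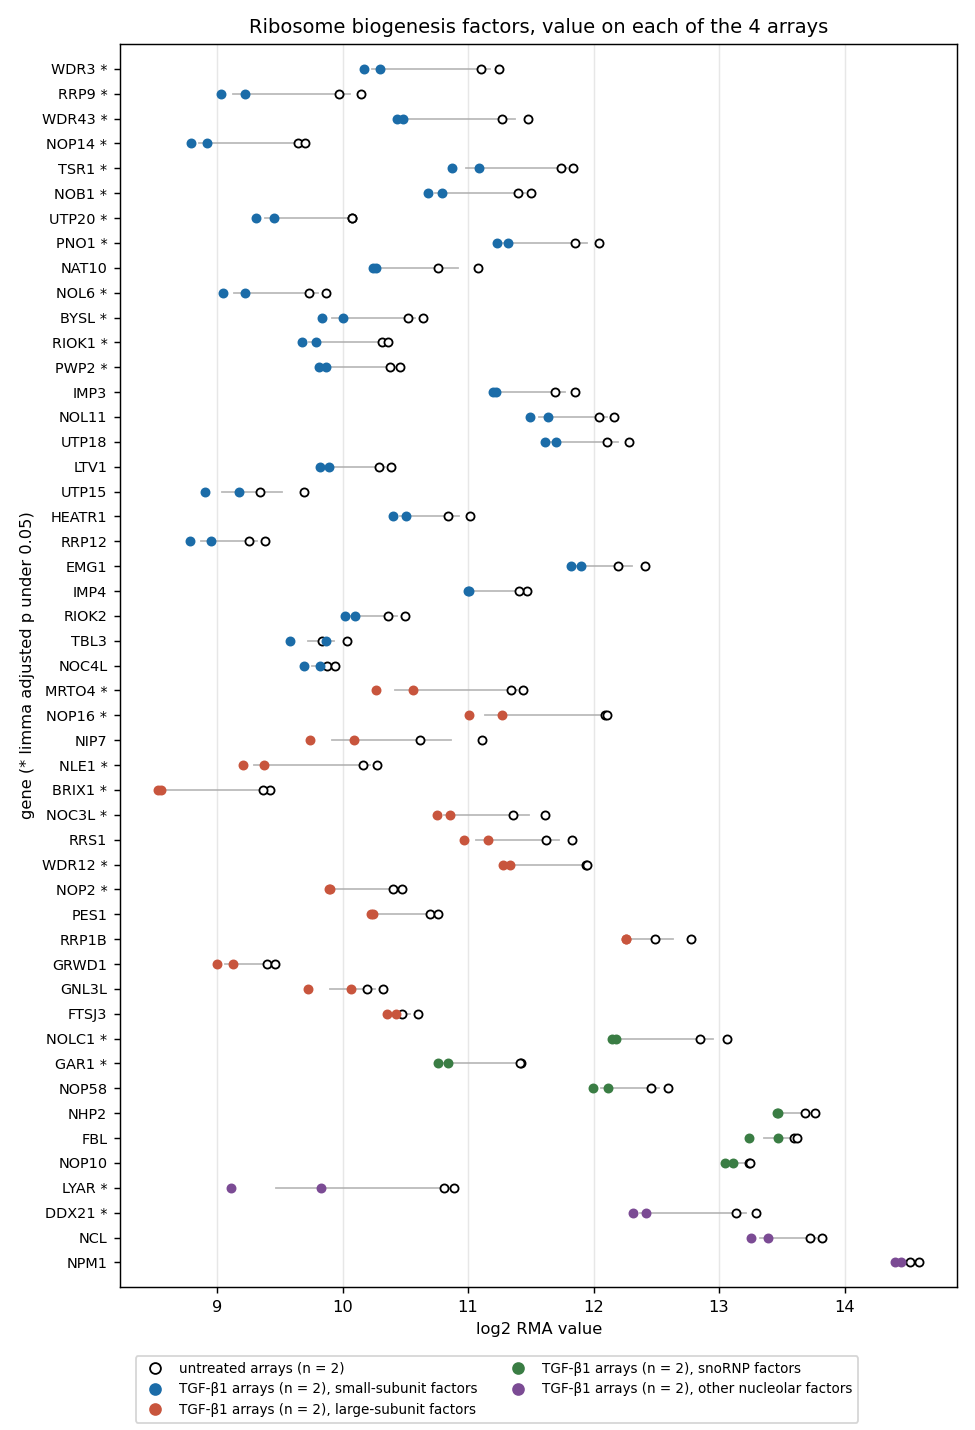
Log2 RMA values of the 49 measured factors on each array, with open circles for the 2 untreated and filled circles for the 2 TGF-β1 arrays, coloured by class. Grey lines join the group means and asterisks mark the 23 genes with a limma adjusted p under 0.05. The filled circles lie left of the open ones in every gene but TBL3, where they overlap.

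Among the small-subunit factors, all of them measured, 12 of 25 fell, 0 rose and 13 did not pass. Their median log2 fold change was -0.58. Among the factors listed, the median was -0.51 for UTP-A (1 of 4 fell), -0.56 for UTP-B (2 of 4) and -0.56 for the U3 particle (1 of 3), the units that load early onto the precursor RNA. WDR3, a subunit of the UTP-B subcomplex, read 11.25 and 11.10 in the untreated and 10.30 and 10.17 in the TGF-β1 arrays. It was 1.92-fold lower (log2 fold change -0.94 ± 0.111 SE, n = 2 per group, limma adjusted p = 0.0150). RRP9, a protein specific to the U3 snoRNP, read 10.15 and 9.97 against 9.23 and 9.03, and was 1.91-fold lower (limma adjusted p = 0.0198). In both genes the gap between groups was wider than the spread within them. WDR43, a subunit of the UTP-A subcomplex, read 11.47 and 11.27 against 10.48 and 10.43, and was 1.88-fold lower (limma adjusted p = 0.0174).

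WDR3, RRP9 and WDR43 had the largest falls of the class, so the partners listed after them changed less by that order. The difference was not tested. In UTP-B, PWP2 read 10.46 and 10.38 against 9.87 and 9.81 (1.49-fold lower, limma adjusted p = 0.0412), and UTP18 missed the threshold at a log2 fold change of -0.54 (limma adjusted p = 0.0607). TBL3, also of UTP-B, read 10.04 and 9.84 against 9.87 and 9.58, the only overlap of groups among the 49 factors. In UTP-A, HEATR1, NOL11 and UTP15 missed it too, at log2 fold changes of -0.47, -0.54 and -0.48 (limma adjusted p from 0.0606 to 0.203). IMP3 and IMP4, which bind U3 RNA, had log2 fold changes of -0.56 and -0.43, IMP3 just outside the threshold (limma adjusted p = 0.0501). It read 11.85 and 11.69 against 11.22 and 11.20, with no overlap.

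Processome proteins outside these subcomplexes fell as well. NOP14 read 9.65 and 9.70 in the untreated and 8.92 and 8.79 in the TGF-β1 arrays (1.76-fold lower, limma adjusted p = 0.0185). UTP20, a very large scaffold protein, read 10.07 on both untreated arrays and 9.31 and 9.45 on the TGF-β1 arrays (1.61-fold lower, limma adjusted p = 0.0289). NOL6 read 9.87 and 9.73 against 9.22 and 9.05 (1.59-fold lower, limma adjusted p = 0.0405). In all 3 the arrays of a group lay closer to each other than to the other group. NAT10, which acetylates cytidines of small-subunit RNA, missed the threshold at a log2 fold change of -0.67 (limma adjusted p = 0.0581), with untreated values of 11.08 and 10.76 spread wider than the TGF-β1 values of 10.24 and 10.26. The methyltransferase gene EMG1, RRP12 and NOC4L missed it at log2 fold changes of -0.44, -0.45 and -0.15.

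Factors of late small-subunit assembly fell in 5 of 7 cases, with a median log2 fold change of -0.66. TSR1, a factor related to GTPases that occupies the precursor particle, read 11.84 and 11.74 against 11.09 and 10.87 (1.75-fold lower, limma adjusted p = 0.0265). NOB1, the nuclease that makes the last cut of small-subunit RNA, read 11.50 and 11.40 against 10.79 and 10.68 (1.64-fold lower, limma adjusted p = 0.0276), and its partner PNO1 12.04 and 11.85 against 11.32 and 11.23 (1.59-fold lower, limma adjusted p = 0.0391). The enzyme and its partner thus moved by a like amount. BYSL, an assembly factor that joins in the nucleus, was 1.58-fold lower, from 10.64 and 10.52 to 10.00 and 9.84 (limma adjusted p = 0.0391). RIOK1, an atypical kinase, was 1.52-fold lower, from 10.31 and 10.36 to 9.79 and 9.68 (limma adjusted p = 0.0391). LTV1 and the kinase gene RIOK2 missed the threshold at log2 fold changes of -0.48 and -0.37 (limma adjusted p = 0.0666 and 0.138).

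Among the large-subunit factors, 7 of 14 measured fell, 0 rose and 7 missed the threshold. Their median log2 fold change was -0.65. In all 14 both TGF-β1 arrays read below both untreated arrays. MRTO4, which holds the place of the ribosomal stalk protein during assembly, read 11.44 and 11.34 in the untreated and 10.56 and 10.27 in the TGF-β1 arrays. It was 1.97-fold lower (log2 fold change -0.98 ± 0.130 SE, n = 2 per group, limma adjusted p = 0.0204). NOP16 read 12.09 and 12.11 against 11.27 and 11.01 (1.95-fold lower, limma adjusted p = 0.0185). In both genes the 2 TGF-β1 arrays lay further from each other than the 2 untreated arrays did. NLE1, which the giant ATPase MDN1 strips from the particle, read 10.28 and 10.16 against 9.38 and 9.21 (1.90-fold lower, limma adjusted p = 0.0164). BRIX1, an early assembly factor, read 9.42 and 9.37 against 8.53 and 8.55 (1.81-fold lower), and its limma adjusted p of 0.0136 was the smallest among the 49 factors.

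Further large-subunit factors fell by less. NOC3L read 11.61 and 11.36 against 10.85 and 10.75 (log2 fold change -0.68, limma adjusted p = 0.0459). NOP2, a methyltransferase of large-subunit RNA, read 10.47 and 10.41 against 9.90 and 9.89 (1.46-fold lower, limma adjusted p = 0.0446). WDR12 and PES1 are partners in the PeBoW complex, whose other subunit is BOP1. WDR12 read 11.94 and 11.95 against 11.33 and 11.28 (1.56-fold lower, limma adjusted p = 0.0298). PES1 read 10.69 and 10.76 against 10.25 and 10.23 and lay just outside the threshold (limma adjusted p = 0.0562), so the call separates partners with log2 fold changes of -0.64 ± 0.097 and -0.49 ± 0.098 (SE), a difference that was not tested.

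The 7 large-subunit factors that did not pass ranged widely in size of change. NIP7 had a log2 fold change of -0.95, nearly that of MRTO4, with a standard error of 0.197, as its untreated arrays read 11.11 and 10.61 and its TGF-β1 arrays 10.09 and 9.74 (limma adjusted p = 0.0650). RRS1, which brings the 5S particle into the assembling subunit, read 11.83 and 11.62 against 11.16 and 10.97 (limma adjusted p = 0.0502). RRP1B, GRWD1 and the GTPase gene GNL3L had log2 fold changes between -0.38 and -0.36, and FTSJ3, a methyltransferase that acts during assembly, -0.14 (limma adjusted p = 0.598).

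Of the snoRNP factors, 2 of 6 measured fell, 0 rose and 4 did not pass, and the median log2 fold change was -0.37. The 2 that fell were NOLC1 and GAR1. NOLC1, a chaperone of both kinds of snoRNP, read 13.06 and 12.85 in the untreated and 12.18 and 12.15 in the TGF-β1 arrays (1.73-fold lower, limma adjusted p = 0.0252). GAR1, of the H/ACA core, read 11.42 on both untreated arrays and 10.84 and 10.76 on the TGF-β1 arrays (1.54-fold lower, limma adjusted p = 0.0333). The remaining core proteins among the measured factors differed by less, although in each of them the groups did not overlap. NOP58, of the C/D core, had a log2 fold change of -0.47 (limma adjusted p = 0.0832), and NHP2, of the H/ACA core, -0.26 (limma adjusted p = 0.250). FBL, the methyltransferase of C/D particles, read 13.59 and 13.62 against 13.24 and 13.47 (log2 fold change -0.25, limma adjusted p = 0.361). NOP10, of the H/ACA core, read 13.24 on both untreated arrays and 13.05 and 13.11 on the TGF-β1 arrays (log2 fold change -0.16, limma adjusted p = 0.502).

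Of the 4 nucleolar proteins with several roles, 2 fell. LYAR, a zinc finger protein of the nucleolus, had the largest change of the 49 factors: it read 10.81 and 10.89 in the untreated and 9.83 and 9.11 in the TGF-β1 arrays, and was 2.60-fold lower (log2 fold change -1.38 ± 0.228 SE, limma adjusted p = 0.0372). Its TGF-β1 arrays lay further apart (SD 0.508) than those of any other measured factor, and its log2 fold change was -1.02 without TGF-β1 replicate 2 and -1.74 without TGF-β1 replicate 1. DDX21, an RNA helicase that links polymerase I transcription with processing, read 13.30 and 13.13 against 12.42 and 12.32 (1.80-fold lower, limma adjusted p = 0.0190). Nucleolin and nucleophosmin, abundant proteins of the nucleolus, missed the threshold: NCL read 13.82 and 13.72 against 13.26 and 13.39 (log2 fold change -0.45, limma adjusted p = 0.0890), and NPM1 14.60 and 14.52 against 14.45 and 14.40 (log2 fold change -0.13, limma adjusted p = 0.623). NPM1 had the smallest change of the 49. It read close to the highest value on the arrays (15.34), and whether its probes still respond in proportion there was not tested.

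Small-subunit, large-subunit and snoRNP factors were then compared by their medians. In the 4 pairings of arrays the median change lay between -0.66 and -0.50 for small-subunit factors, between -0.76 and -0.51 for large-subunit factors and between -0.43 and -0.35 for snoRNP factors. The ranges of the subunit classes overlapped each other, and that of the 6 snoRNP factors lay above both. This difference rests on few genes and was not tested. Over all 8 probe sets of the snoRNP factors, 3 of them for NOLC1, the median was -0.54, against -0.54 for small-subunit and -0.55 for large-subunit probe sets. The snoRNP factors were also brighter, with a median untreated level of 13.1 against 10.58 and 10.8. Of all 49 factors, the 5 with a mean level of 13 or more, FBL, NHP2 and NOP10 among them, had a median of -0.25, and 0 fell. The 44 below that level had a median of -0.63, and 23 fell. Over all genes at 13 or more, 0.244% were called lower. The part of level in the class difference was not tested.

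**Figure D3:**
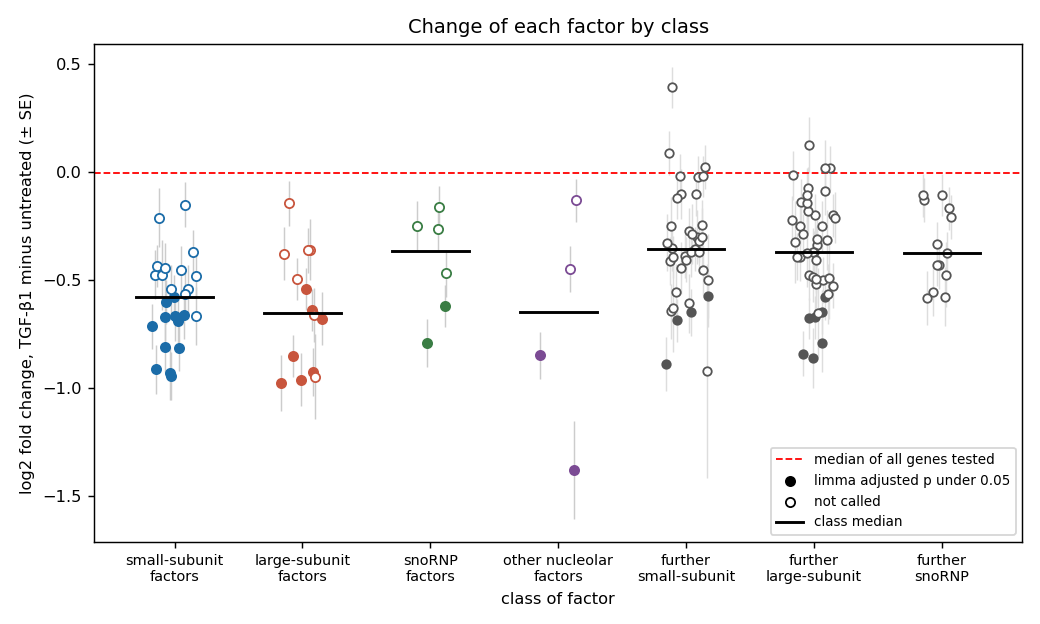
Log2 fold changes (TGF-β1 minus untreated, bars ± SE from limma) of the 49 factors in 4 classes and of 93 further pathway genes in 3 classes. Filled circles have a limma adjusted p under 0.05, black lines are class medians and the dashed red line is the median of all genes. All 49 factors lie below the red line, and the medians of the further genes lie between -0.38 and -0.36.

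Further genes of the pathway were listed by role, also with earlier results of these data known. Of 97 listed, 93 were measured, of which 11 (11.8%) fell and 0 rose at a limma adjusted p under 0.05. The share called lower was 46.9% among the 49 factors and 1.47% over all genes. By unadjusted p, 54 of the 93 were lower and 1 higher, with 8.54% of all genes lower. Their median log2 fold change was -0.37, and 87 lay below 0, as did 50.9% of all genes. Of the small-subunit genes 4 of 37 fell: DIMT1, a dimethyltransferase of small-subunit RNA (1.85-fold lower), UTP14A (1.61-fold), the UTP-A subunit gene WDR75 (1.57-fold) and PDCD11 (1.49-fold). Of the large-subunit genes 7 of 43 fell, led by PAK1IP1 (1.82-fold), URB2 (1.79-fold), NIFK (1.73-fold) and MAK16 (log2 fold change -0.68). Of 13 further genes listed under snoRNPs, 0 passed by limma and 8 were lower at an unadjusted p under 0.05. RIOK3, a kinase related to RIOK1 and RIOK2, was the 1 gene higher at an unadjusted p, and is named after its values were seen: its log2 fold change was 0.39 (limma adjusted p = 0.0965). The 49 factors and these 93 genes share the same 4 arrays, so the lists are not independent of each other.

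A second reading came from further probe sets of the same genes. Of 49 factors, 25 had more than 1 probe set, 44 further ones in all, and 43 of these 44 had a log2 fold change below 0, with a median of -0.47. At a limma adjusted p under 0.05 over all probe sets, 4 of the 44 were lower, for LYAR, NLE1, NOLC1 and NOP16, and 0 higher. Under that adjustment 13 of the 49 factors had a probe set called lower, in place of 23, and the brightest LYAR probe set missed the threshold (limma adjusted p = 0.0577). The 1 above 0 was a NOP16 probe set with a mean level of 5.87 (log2 fold change 0.083), and a second dim NOP16 probe set read -0.017, whereas the third, with a mean level of 10.16, read -1.02, like the one used. LYAR read -0.89 by its second probe set, smaller than the -1.38 of the first. MRTO4 read -0.55 by its second probe set against -0.98, and NIP7 -0.72 against -0.95. RIOK2 instead read further below 0 by its second probe set, at -0.70 against -0.37. Among probe sets with a mean level of 7 or more, the widest disagreements were in TSR1 and PWP2. TSR1 read -0.24 by 1 further probe set but -0.75 and -0.84 by the others, against -0.81 for the brightest. PWP2 read -0.049 and -0.045 by its further ones, against -0.58, and its call was lost when they were averaged (limma adjusted p = 0.257). Averaging also ended the calls of NOP16 (log2 fold change -0.48, limma adjusted p = 0.0658), PNO1 (limma adjusted p = 0.0647) and NOL6 (limma adjusted p = 0.0791), while IMP3, NOL11 and RRS1 passed. The probe sets of 22 factors are of the _s_at kind, which can read more than 1 transcript. NPM1 has processed pseudogenes that its probes may also read, and that share was not tested.

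**Figure D4:**
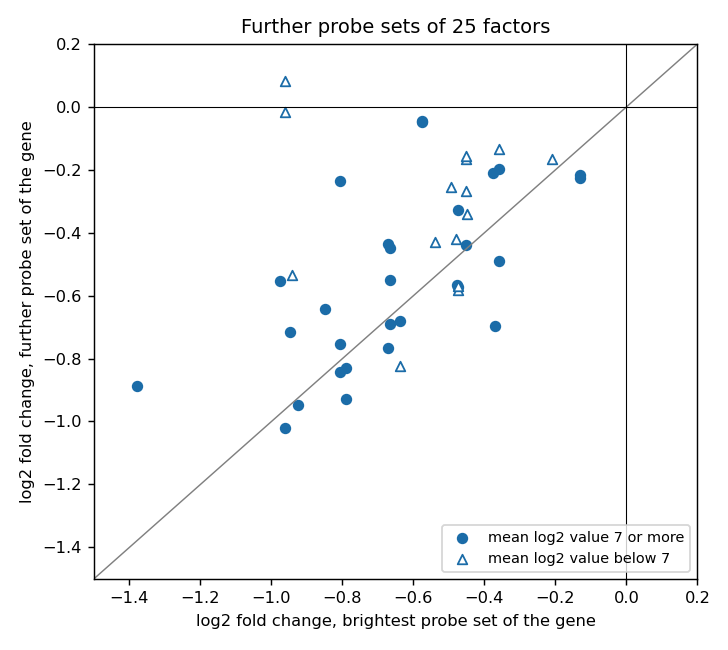
Log2 fold change (TGF-β1 minus untreated) of 44 further probe sets of 25 factors, against that of the brightest probe set of the same gene. Filled circles have a mean log2 value of 7 or more and triangles less, and the grey line marks equal change. All 29 filled circles lie below 0.

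Genes with and without the promoter E-box were compared as a description. Among the 44 factors with both a probe set and a promoter window, 22 held an E-box, of which 15 fell, with a median log2 fold change of -0.67. Of the 22 without it, 7 fell, with a median of -0.48. The values ran from -1.38 to -0.16 with the motif and from -0.96 to -0.13 without it. These ranges overlapped between -0.96 and -0.16. MYC itself read 12.14 and 11.99 in the untreated and 10.55 and 10.42 in the TGF-β1 arrays (2.98-fold lower, limma adjusted p = 0.00311), and its part in the values of these genes was not tested. For comparison, the ETS core CCGGAAG (either strand) was present in 19 of the 55 windows (34.5%). It was in 10.3% of all windows and 12.9% of the windows of genes read on the arrays. With it 10 of 18 factors fell and without it 12 of 26, with medians of -0.61 and -0.55. The GC box GGGCGG (either strand) was in 39 of 55 (70.9%), in 44.9% of all windows and in 56.7% of those of genes read on the arrays. With it 18 of 34 factors fell and without it 4 of 10, with medians of -0.59 and -0.60. The SMAD palindrome GTCTAGAC was in none of the 55 windows and in 0.202% of all windows.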

How the data were processed

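RNA of 4 samples was read on HG-U133 Plus 2.0 arrays. Per the series' design text and the submitters' processing notes, the authors deposited log2 values made by RMA: background correction, quantile normalization and summarization per probe set. No software version is stated in the sources used, and the log2 scale was judged from the range. RMA hides a shift shared by most transcripts, and gives no detection call.

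Of 54675 probe sets, 62 were array controls. The platform annotation names 1 gene for 41097, several for 1801 and none for 11777. Symbols were updated by Entrez gene ID for 41043, and the brightest probe set per gene (mean of 4 arrays) was kept, leaving 19775 genes. Probe sets naming several genes, 7 of them for factors described here, were left out. Groups came from sample titles.

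The comparison used limma (version 3.58.1, R version 4.3.3; functions lmFit and eBayes, all 4 arrays, no covariate, two-sided, 6.13 degrees of freedom), with Benjamini-Hochberg adjustment over all genes and a threshold of 0.05. The fit was tested on simulated data with independent arrays, which says nothing about arrays that deviate together. Its pass mark was set on larger changes than those of these factors. An exact permutation test of 2 against 2 arrays cannot reach 0.05, so none was used. Fold changes are TGF-β1 minus untreated. The genes, their classes and the list of further pathway genes were chosen with earlier results of these data known, so lists are described by counts and medians with no p. All factors are accounted for by class: those that passed and the 2 largest changes per class that did not are given with their values, the rest more briefly, and up to 4 called further pathway genes per class are named. RIOK3 and the marker genes named were chosen after their values were seen. Promoter windows are RefSeq's, matched by symbol. Alternatives were minimum mean levels of 5 and 7, an intensity trend, centring of arrays, averaged or single probe sets, a replicate block, leaving out each array, a further 1.5-fold minimum and unadjusted p-values. The number of arrays limits the precision.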

Additional observations from a re-analysis of the deposited data

How the results depend on the processing

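The count of factors called lower stayed within 1.5 times of 23 under most alternatives: 31 with an intensity trend, 25 and 32 over genes with a mean level of at least 5 and 7, 23 with arrays centred on their medians or on 7 of 8 listed housekeeping genes (1 was not measured), 22 with averaged probe sets (19 of them among the 23) and 21 with a further 1.5-fold minimum. It was 13 over single probe sets, 43 at an unadjusted p under 0.05, and 0 to 1 with 1 array left out. None was called higher under any setting with all 4 arrays. All 49 kept a log2 fold change below 0 in every fit at gene level. The block, the intensity trend and the level minimums leave each log2 fold change as it was, so they could not alter its sign. Leaving out 1 array could not alter it either for the 48 factors whose groups did not overlap. Of the further pathway genes, 18 in place of 11 were lower over genes with a mean level of at least 7, 6 had a probe set called lower over single probe sets, 54 were lower at an unadjusted p (and 1 higher), and 0 with any 1 array left out. The median of the factors ranged from -0.62 to -0.53 with 1 array left out, and that of the snoRNP factors moved to -0.54 over single probe sets, since NOLC1 then counts 3 times. With the replicate number as a block, 19 factors were lower, 17 of them among the 23. The labels do not say that the numbers pair the arrays, and same-numbered arrays deviated together with a correlation of 0.364 over genes (2 pairs). Under the block LYAR, GAR1, NOC3L, NOP2, PWP2 and RIOK1 did not pass (limma adjusted p from 0.0508 to 0.0650), while NIP7 and RRS1 did (0.0324 and 0.0455). No result changed direction, though several of these settings could not change it.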

Other observations

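The factors differed between replicate numbers as well as between groups. In 30 of the 49, replicate 1 read above replicate 2 in both groups, and in 4 below it in both. Over all 19775 genes, 5384 (27.2%) read above in both and 6106 below, and over the 7251 genes within the level range of the factors, 37.8% read above. In the small-subunit class 18 of 25 read higher in replicate 1 in both groups.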
